A study of Homo sapiens with 4 samples.

Results

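Peaks that run across 3 or more exon blocks, with every gap between neighbouring blocks below 5000 bp, made up 158 of the 3355 m7G peaks listed for immunoprecipitation (IP) replicate 1 and 228 of the 4747 listed for replicate 2. They were chosen by block count and gap alone, from the block sizes and block starts in the authors' lists. Their share was 4.71% in replicate 1 (95% Wilson interval 4.04 to 5.48%). In replicate 2 it was 4.803% (4.23 to 5.45%). The peaks lay in 147 and 207 genes, 265 in either list and 89 in both. The cells were HepG2, a human hepatocellular carcinoma line, grown without treatment. Poly(A) RNA was sequenced from 2 input samples and from 2 samples enriched with an N7-methylguanosine (m7G) antibody; only the 2 IP samples carry a peak list. Separate cultures are not stated for the IP samples, so differences between the lists may be technical. The value of each peak is the authors' own fold enrichment and p-value; the read depth behind them is unknown.

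N7-methylguanosine is the base of the mRNA cap and also occurs inside mRNAs, tRNAs and rRNAs. In a MeRIP experiment RNA is fragmented and pulled down with the antibody, and the enriched stretches are called as peaks. A peak that crosses exon junctions is listed as several genomic blocks, one per exon, separated by the introns that were removed from the mRNA. A peak of at least 3 blocks therefore holds at least 1 middle block bounded by a junction on both sides.

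The block structure was first set against the name given to these peaks. Gaps between blocks had a median of 426 bp in replicate 1 (n = 431) and 343 bp in replicate 2 (n = 579), and 75.6% and 77.7% of them were under 1000 bp. The widest gaps reached 4966 and 4883 bp. Gaps under 30 bp were 2 gaps of 1 bp in ZNF598 in each list and a gap in COL18A1 in replicate 2. If gaps that small were joined, ZNF598, an E3 ubiquitin ligase that senses collided ribosomes, would fall below 3 blocks in both lists. Whether a block coincides with an annotated exon was not analysed here. Close to the gap limit, the peak with the widest gap inside it was in PPIL2, a spliceosomal cyclophilin, in replicate 1 (4966 bp, fold 3.84) and in PUF60, a splicing factor, in replicate 2 (4883 bp, fold 6.75). The nearest outside were in PCBP4, a poly(C)-binding protein (5237 bp, fold 3.11), and ESPN, an actin-bundling protein (5087 bp, fold 2.95). In all, 37 of 195 peaks with 3 or more blocks in replicate 1 and 61 of 289 in replicate 2 lay outside the limit. As a check of the cells, 7 of 14 hepatocyte markers had a peak in both lists (among them APOA1, APOB, APOE and SERPINA1), and ALB, TTR and AFP had none. Of markers of other cell types, 2 of 6 immune, 1 of 6 endothelial and stellate, 3 of 4 cholangiocyte and 0 of 3 neuronal genes had a peak in either list. In both lists the cholangiocyte count was 2 and the other counts were the same.

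A subset of these peaks covers the start of the transcript, where the cap is. RefSeq promoter entries (GRCh38.p14) were found for the genes of 120 of the 158 replicate 1 peaks and 183 of the 228 replicate 2 peaks. A peak covered a RefSeq start in 19 genes in either list and in 10 genes in both. The sequences of 6 of these 10 genes are shown because they let the first exon's start be read against the edge of the peak; they were chosen after their values were seen. Each run holds 70 bases before and 30 bases after the RefSeq start, 5′ to 3′ on the gene's strand, and capitals mark the bases inside the peak in both lists. The windows are chr19:2051215-2051314 (minus strand) for MKNK2, chr17:7239428-7239527 (minus) for PHF23, chr22:23767943-23768042 (minus) for CHCHD10, chr19:48954805-48954904 (plus) for BAX, chr17:82037668-82037767 (minus) for DCXR and chr11:61792570-61792669 (minus) for TMEM258.
MKNK2: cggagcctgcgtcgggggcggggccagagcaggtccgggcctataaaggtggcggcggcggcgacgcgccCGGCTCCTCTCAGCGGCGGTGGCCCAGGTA
PHF23: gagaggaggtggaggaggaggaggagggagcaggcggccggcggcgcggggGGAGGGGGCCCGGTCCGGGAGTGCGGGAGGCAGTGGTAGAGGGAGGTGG
CHCHD10: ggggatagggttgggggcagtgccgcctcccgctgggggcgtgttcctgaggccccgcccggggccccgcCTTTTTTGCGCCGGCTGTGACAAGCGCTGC
BAX: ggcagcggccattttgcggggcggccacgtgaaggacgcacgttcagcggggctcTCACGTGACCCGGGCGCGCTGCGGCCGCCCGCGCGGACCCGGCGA
DCXR: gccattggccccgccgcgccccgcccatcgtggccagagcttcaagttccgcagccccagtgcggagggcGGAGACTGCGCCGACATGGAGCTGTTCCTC
TMEM258: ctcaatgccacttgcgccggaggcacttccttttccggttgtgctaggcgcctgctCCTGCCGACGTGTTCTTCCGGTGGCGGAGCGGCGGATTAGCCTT
In MKNK2, CHCHD10 and DCXR the capitals begin exactly at the RefSeq start, in both lists. In PHF23, BAX and TMEM258 they begin upstream of it. Whether an annotated start set the edge of a peak was not tested, so an exact match does not place m7G at that base. The PHF23 peak begins 1322 and 1352 bp inside the gene's span, so the RefSeq start shown for PHF23 is not the gene's outermost start. These starts belong to a kinase of the cap-binding factor eIF4E (MKNK2), a PHD finger protein (PHF23), a mitochondrial protein of the intermembrane space (CHCHD10), a pro-apoptotic BCL2 family member (BAX), a carbonyl reductase (DCXR) and a subunit of the oligosaccharyltransferase (TMEM258). The GC box GGGCGG, searched on both strands, was present in 11 of the 19 windows (57.9%), in 69.8% of the 453 windows whose start was covered by any peak, and in 28.7% of all 34789 windows of the same length. The median GC content of the same windows was 73%, 76% and 61%. A start window under one of these peaks thus had a GC content near that of starts under any peak.

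The peaks of the kinase gene MKNK2 had folds of 11 in replicate 1 and 9.73 in replicate 2, over 388 and 477 nt and 4 blocks, with a -log10 p of 141 and 105. CHCHD10 had folds of 5.48 and 3.71, with a -log10 p of 434 and 204, and its peak took in 84.5% and 79.1% of the 2139 bp gene. The fold of MKNK2 was high in both lists, whereas that of CHCHD10 in replicate 2 lay below the median of all peaks, 3.87. PHF23 had folds of 17.3 and 6.33, the second being the value that recurs most in replicate 2. BAX had folds of 4.24 and 4.22, DCXR 3.93 and 2.71, and TMEM258 3.82 and 2.43. Replicate 1 was the higher list for each of these 6 genes. APRT, a purine salvage enzyme, had the same ends in both lists and folds of 4.22 and 2.02. AURKAIP1, a protein of the mitochondrial ribosome, had 2.55 and 2.28, and PCK2, the mitochondrial PEP carboxykinase, had 2.45 and 2.62.

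Most of the peaks were short chains of exons. Exactly 3 blocks were listed for 107 peaks of replicate 1 (67.7%) and 167 of replicate 2 (73.2%), 4 blocks for 29 and 42, and 5 to 9 blocks for 20 and 17 in turn. Within the gap limit, the peaks of 10 or more blocks were 1 in COL18A1 and 1 in COL9A3, both collagen genes, in each list. The median spliced length was 278 nt in replicate 1 and 269 nt in replicate 2, against 150 nt for the single-block peaks of either list. Block count and length are linked by the way the peaks were chosen. The end blocks had a median of 47.5 and 47 nt, and 25 of 316 in replicate 1 (7.91%) and 35 of 456 in replicate 2 (7.68%) were 5 nt or less.

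The collagen peaks had the most blocks. Collagen chains form triple helices from Gly-X-Y repeats, and their helix exons are known to be built from multiples of 9 bases, often 54. COL9A3, an alpha chain of collagen IX, had 32 blocks in both lists on chromosome 20 from 62817062, ending at 62840860 in replicate 1 and 62840890 in replicate 2. The spliced peak was 2186 and 2216 nt long, with folds of 4.23 and 4.61 and a -log10 p of 53.7 and 59.3, and it stretched over 95.4% and 95.5% of the gene's span. COL18A1, the precursor of endostatin, had a 10-block peak with folds of 2.93 and 3.02. Fold was similar in both lists for these long chains. COL6A1, a collagen VI chain, had a 6-block peak with fold 21.0 in replicate 1 and a 5-block peak with fold 16.4 in replicate 2. COL27A1, a fibrillar chain, had an 8-block peak with fold 6.32 in replicate 1. At the same place replicate 2 listed a 12-block peak with fold 12.5, which has a gap of 5000 bp or more and so falls outside the limit. The 9-block COL27A1 peak of replicate 2 (fold 5.75) overlapped a 6-block peak of replicate 1 (fold 3.56). COL6A2 was present in replicate 1 alone (fold 14.8) and COL7A1 in replicate 2 alone (fold 22.1). In all, 6 of the 7 collagen genes with a peak in replicate 1 and 6 of 6 in replicate 2 had a peak of this kind, beside 5.85% and 6.46% of all genes with a peak.

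**Figure D1:**
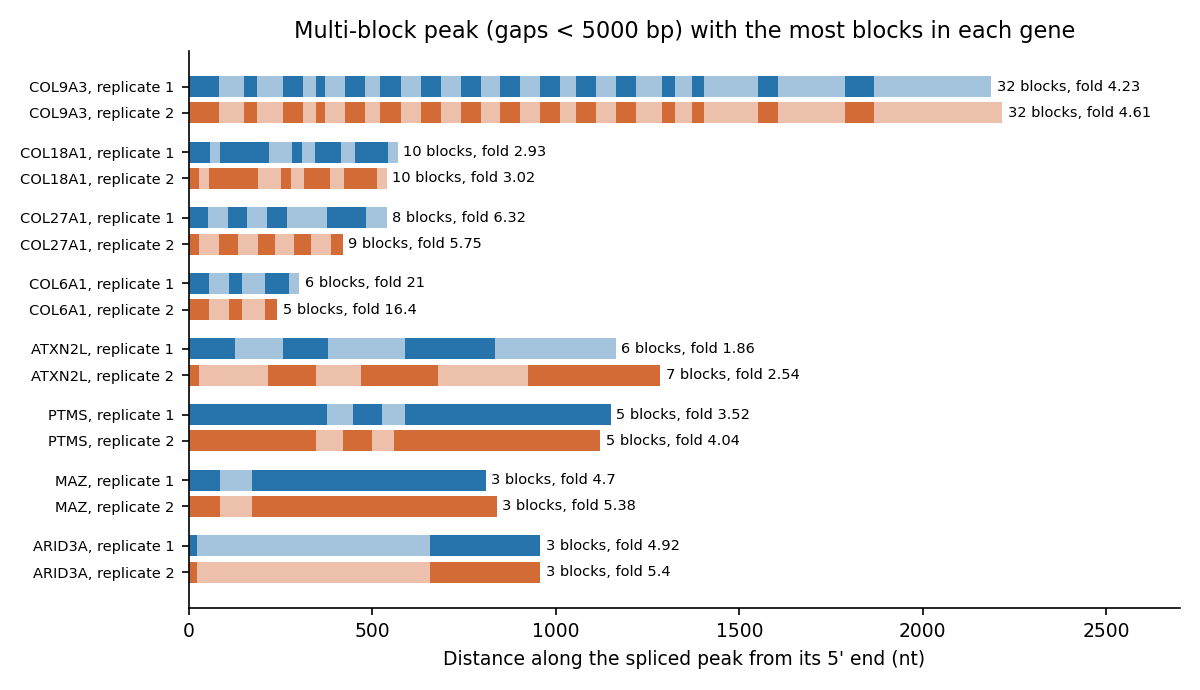
Blocks of the peak with the most blocks among those with every gap below 5000 bp, in 8 genes and both lists, drawn along the spliced peak from its 5′ end (x axis, nt); shades alternate between neighbouring blocks, and the number of blocks and the fold stand at the right. COL9A3 has 32 blocks in both lists, and the COL27A1 peaks drawn lie at different places in the gene.

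The lengths of the middle blocks were counted once per block over both lists, which gave 472 distinct blocks, 152 of them in both lists. In collagen genes 31 of 78 distinct middle blocks were 54 nt long, and 73 were a multiple of 3. In the other genes 2 of 394 were 54 nt long and 37.8% were a multiple of 3. Within each list the share that was a multiple of 3 was 98.4% in collagens (62 of 63) and 39.5% elsewhere in replicate 1, and 92.5% (62 of 67) and 36.6% in replicate 2. The blocks of COL9A3 make up much of the collagen count, and blocks of 1 gene are not independent. Block lengths may come from a gene model, which is not named, and are no measure of m7G.

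**Figure D2:**
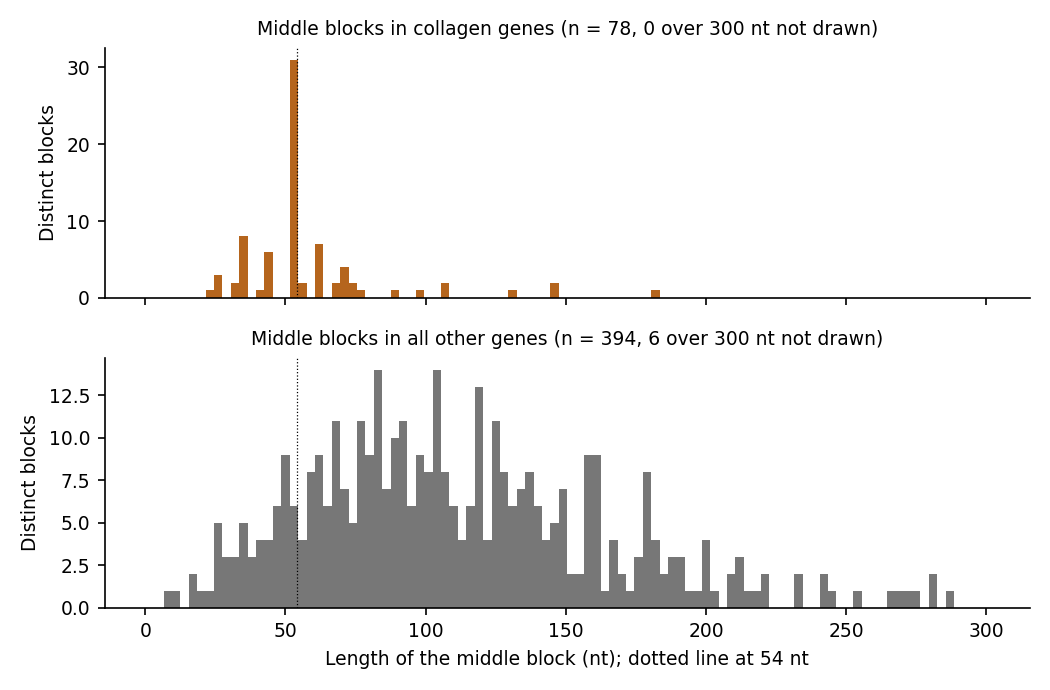
Number of distinct middle blocks (y axis) by block length (x axis, nt) in collagen genes, above, and in all other genes, below, with a dotted line at 54 nt. In collagens 31 of 78 blocks are 54 nt long, and in other genes the lengths spread widely around a median of 104 nt.

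Multi-block peaks had lower folds than other peaks in replicate 1, and less so in replicate 2. Their median fold was 2.53 in replicate 1 (interquartile range 1.67 to 4.24, range 1.12 to 21.0) and 3.48 in replicate 2 (2.36 to 5.42, 1.13 to 44.3). Single-block peaks had medians of 3.89 and 3.95, a difference of -1.36 and -0.46. Peaks of 2 blocks across a short gap had 3.34 and 3.49, a difference of -0.81 and -0.005. The difference from 2-block peaks thus appeared in replicate 1 and was near 0 in replicate 2. Peaks with a gap of 5000 bp or more had medians of 3.87 and 4. Folds under 2 were listed for 36.7% of the multi-block peaks in replicate 1 and 18.4% in replicate 2, against 17.1% and 13.0% of all peaks. With 1 list per sample and 2 samples, these differences allow no test over samples.

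**Figure D3:**
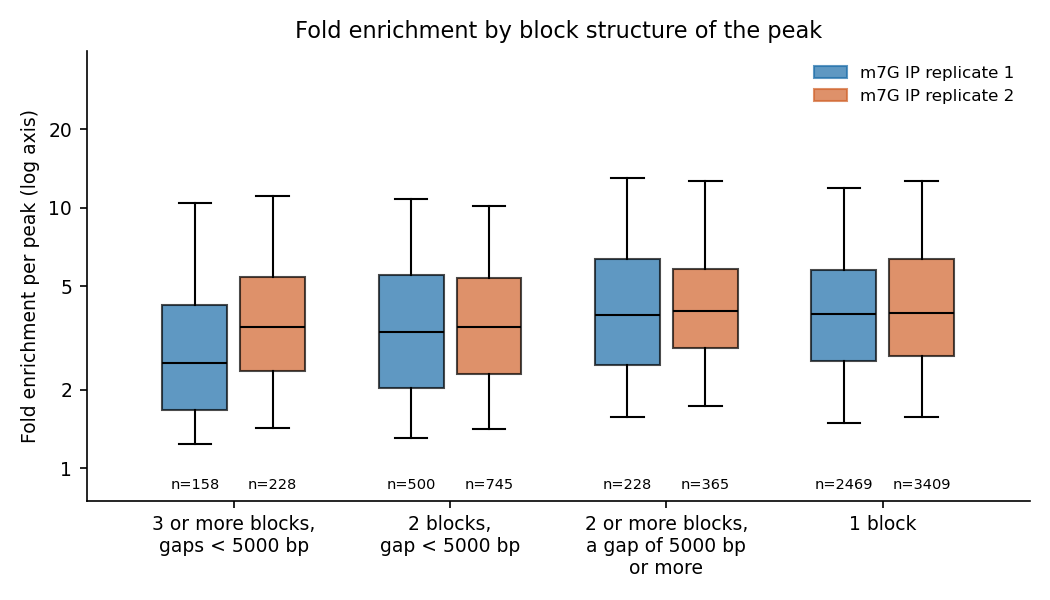
Fold enrichment per peak (log axis) by block structure, with a box for each list giving the median and quartiles and whiskers from the 5th to the 95th percentile. The lowest median is 2.53, for peaks of 3 or more blocks in replicate 1.

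Peak length was then held within bins, chosen after the values were seen. In replicate 1 the multi-block peaks of 211 to 300 nt had a median fold of 2.60 (n = 36), against 3.84 for 2-block (n = 80) and 4.12 for single-block peaks (n = 306). In replicate 2 the same bin gave 3.34 (n = 66), 3.76 (n = 116) and 4.50 (n = 438). Multi-block peaks had the lower median than single-block peaks in each of the 5 bins of replicate 2, and in 4 of the 5 bins of replicate 1, with 3.71 for both in the bin of 150 nt or less. Against 2-block peaks they had the lower median in 4 of the 5 bins of replicate 1 and 3 of the 5 of replicate 2. They had the higher one at 150 nt or less in both lists (3.71 against 2.97, and 3.33 against 3.16) and above 450 nt in replicate 2 (4.04 against 3.86). Across the multi-block peaks, fold was not ranked with length, with a Spearman's rho of -0.03 in replicate 1 (n = 158) and 0.12 in replicate 2 (n = 228), over peaks that share a library. The -log10 p was ranked with length, with a rho of 0.66 in each list. Its median was 11.1 in replicate 1 and 8.02 in replicate 2, against 5.50 and 5.07 over all peaks of any length. At 211 to 300 nt the multi-block median was 12.5 in replicate 1, against 17.15 for 2-block and 9.98 for single-block peaks. In replicate 2 it was 8.61, against 10.35 and 8.54. Above 450 nt it was 26.95 in replicate 1, against 39.7 and 30.5, and 30.5 in replicate 2, against 30.35 and 21. Within a length bin, then, the multi-block -log10 p was not always the higher.

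**Figure D4:**
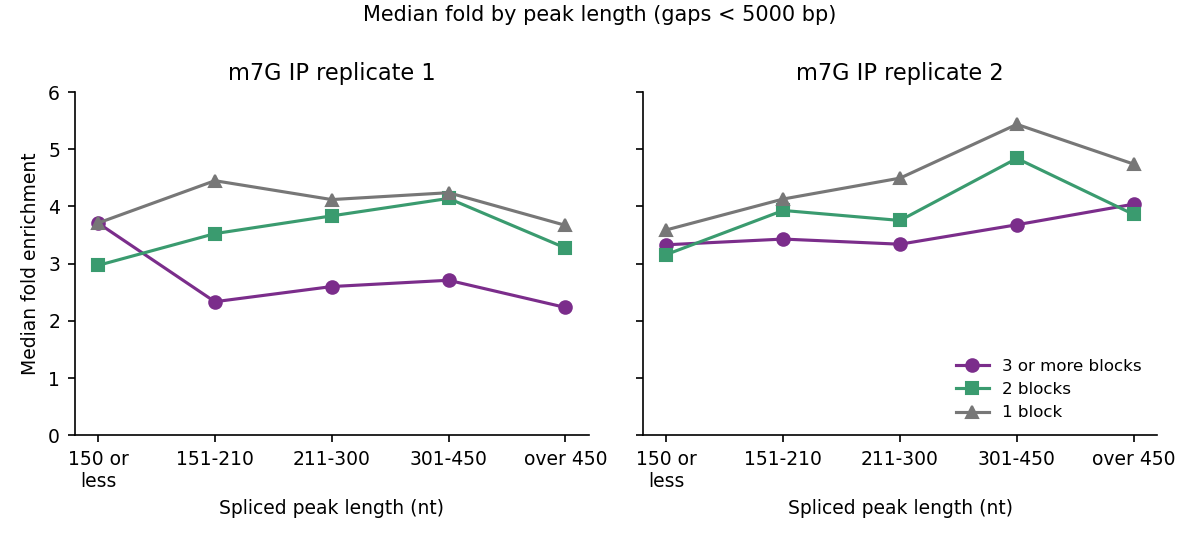
Median fold enrichment (y axis) by spliced peak length (x axis, nt) for peaks of 3 or more blocks, 2 blocks and 1 block, in each list. In the bin of 211 to 300 nt the medians of replicate 1 are 2.60, 3.84 and 4.12 in that order.

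High folds were found in 9 multi-block peaks of replicate 1 and 13 of replicate 2, counting folds above 10. This is 5.70% in each list, against 7.39% and 8.03% of all peaks. In replicate 1 they included COL6A1, PHF23, MKNK2, ZNF598 and ATXN1L, a relative of ataxin-1. In replicate 2 they included UBA7, the activating enzyme of ISG15 (44.3), SHF, an adaptor protein (38.0), and ATP2A2, a calcium pump of the endoplasmic reticulum (16.6). The UBA7 and SHF peaks had a -log10 p of only 5.64 and 5.23 and overlapped no replicate 1 peak. That of ATP2A2 had a -log10 p of 127 and overlapped one. The commonest fold was 7.42 in replicate 1 and 6.33 in replicate 2, listed for 3.19% and 4.13% of all peaks. Of the high folds of multi-block peaks, 2 of the 9 and 6 of the 13 were whole multiples of it within 1%. Those were BAP1 and COL6A2 in replicate 1 and HDGFL2, RING1, ROGDI, SEC61A1, SHF and UBA7 in replicate 2. The share of such multiples among the high folds of all peaks is not given here, so they cannot be called particular to multi-block peaks.

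The lists were then compared peak by peak. In replicate 1, 131 of 158 multi-block peaks (82.9%, 95% Wilson interval 76.3 to 88.0%) had a replicate 2 peak of the same gene across at least 50% of the shorter peak, beside 65.1% of all peaks. In replicate 2, 149 of 228 did so (65.4%, 59.0 to 71.2%), beside 45.4% of all peaks. Length goes with this share. At 211 to 300 nt, 94.4% of multi-block and 90.8% of single-block peaks overlapped in replicate 1, and 63.6% and 75.6% did in replicate 2. Over the 5 length bins, the multi-block share was above the single-block share in 1 bin of replicate 1 and in 2 of replicate 2.

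The introns inside the peaks, taken as the gaps between blocks, were then compared. They may be set by a gene model, which is not named, so a match is no separate sign of agreement. In replicate 1, 127 peaks (80.4%) had at least 1 intron that was also listed in replicate 2, and 73 (46.2%) had every intron listed. In replicate 2 these were 141 (61.8%) and 71 (31.1%). Over all spliced peaks, at least 1 intron was listed for 61.6% and 41.3%, and every intron for 54.1% and 34.8%. The multi-block share was thus the higher for any intron and the lower for every intron. Both depend on the number of introns. A peak with more introns has more chances to match at least 1 and more that must all match. The best overlapping peak was itself multi-block for 91 peaks of each list, and a 2-block peak for 31 of replicate 1 and 43 of replicate 2. It was a single block for 5 and 11. The gene had another peak but no overlap for 11 and 33, and no peak at all in the other list for 16 and 46. Peaks without overlap had a median -log10 p of 5.16 and 5.23, against 12.6 and 12 for those with one.

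Where a multi-block peak of one list was a 2-block peak in the other, it was the longer of the pair at the median. The 31 such peaks of replicate 1 had a median fold of 1.87 over 285 nt, and their replicate 2 partners 1.93 over 180 nt. The 43 such peaks of replicate 2 had 4.3 over 329 nt, and their replicate 1 partners 3.07 over shorter stretches. Ribosomal protein genes gave examples of the first kind. RPLP1, of the ribosomal stalk, had 3 blocks with fold 2.77 in replicate 1 and 2 blocks with fold 1.93 in replicate 2, from the same start. RPL28 had 3 blocks (1.97) and 2 blocks (1.98), and RPL36 had 4 blocks (1.48) and 2 blocks (1.45). RPS2 had 5 blocks (2.23) in replicate 1, where replicate 2 had a pair of 2-block peaks (1.81 and 2.15).

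One-to-one matching gave 89 pairs of multi-block peaks in 83 genes. Their folds had a Spearman's rho of 0.87 between the lists, beside 0.80 over all 2128 shared peaks and 0.79 over shared single-block peaks (n = 1326). The libraries behind each fold are not named, so whether both lists were set against the same input is unknown. Folds lay within 1.5 times of each other for 75 pairs (84.3%) and differed by more than 2 times for 6 (6.74%), beside 72.6% and 10.8% of all shared peaks. The median fold was 2.66 in replicate 1 and 2.74 in replicate 2. The 6 pairs that differed most were ACADVL, an enzyme of fatty acid oxidation (1.72 and 9.04), BAP1, a deubiquitinase (14.8 and 4.38), PHF23, CAMSAP3, a microtubule minus-end protein (3.32 and 8.27), APRT, and HDGFL2, a PWWP domain protein (6.18 and 12.7). In ACADVL the peaks also differed in extent, at 120 and 239 nt.

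**Figure D5:**
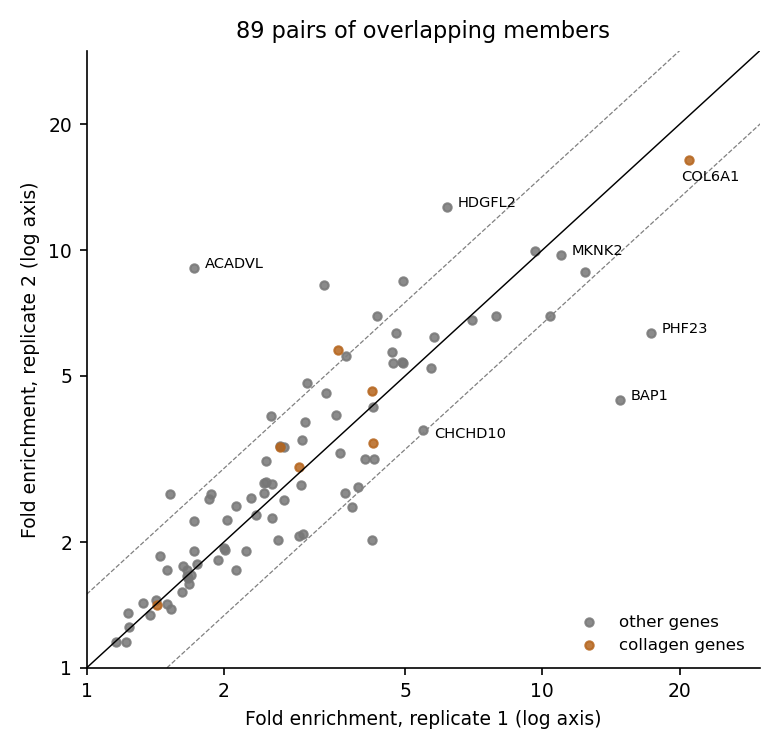
Fold enrichment in replicate 1 (x axis) and replicate 2 (y axis) for the 89 pairs of overlapping multi-block peaks, both axes logarithmic, with the line of equality and dashed lines at 1.5 times. Of the pairs, 75 lie within the dashed lines, and ACADVL and BAP1 are among the 6 that differ by more than 2 times.

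All introns were the same in more of these pairs than both outer ends were. Whether a gene model set the inner block edges is not known, so shared introns are no separate sign of agreement between the lists. The block count was the same in 59 pairs (66.3%) and all introns in 53 (59.6%), whereas both ends were the same in 6 (6.74%) and at least 1 end in 49 (55.1%). The lengths of a pair differed by a multiple of 30 nt, within 1 nt, in 78 pairs (87.6%). The ends of peaks thus moved in steps, and small shifts of an end are within that step. HNRNPL, a splicing regulator, had identical ends on chromosome 19 from 38846044 to 38852339 in both lists, with folds of 7.02 and 6.80 and a -log10 p of 198 and 137. NICOL1, a secreted cofactor, also had identical ends, with folds of 4.77 and 6.33. ARID3A, a DNA-binding protein of the ARID family, had identical ends over 957 nt, with folds of 4.92 and 5.40.

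Pairs with high fold in both lists came from genes of several functions. COL6A1, MKNK2 and LRCH4, a leucine-rich repeat protein (9.65 and 9.94), stood above 9 in both lists. ZNF598 had 12.4 and 8.86, ATXN1L 10.4 and 6.96, and the transcription factor USF2 7.91 and 6.96. RRP9, a subunit of the U3 snoRNP, had 4.95 and 8.43, and CEP170B, a microtubule-associated relative of CEP170, had 4.33 and 6.97. Of these, MKNK2, ZNF598, ATXN1L and USF2 began within 60 bp of the gene's start in both lists, and COL6A1, LRCH4 and CEP170B began 8614 bp or more inside the gene. The multi-block median -log10 p was 11.05 in replicate 1 and 8.015 in replicate 2. LRCH4 (6.92 and 6.47), ZNF598 (9.32 and 7.55), ATXN1L (5.5 and 6.71) and RRP9 (5.09 and 5.79) lay below it in both lists. MKNK2 (141 and 105) and USF2 (14.4 and 16.6) lay above it in both, and COL6A1 and CEP170B in a single list.

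The longest paired peaks included one that spanned nearly a whole gene and others at a gene's last exons. PTMS, parathymosin, had 5 blocks over 1150 and 1121 nt that took in 99.7% and 99.1% of the gene's 4590 bp, with folds of 3.52 and 4.04. MAZ, a zinc finger transcription factor, had 3 blocks over 809 and 839 nt, folds of 4.70 and 5.38 and a -log10 p of 169 and 184. ATXN2L, a stress granule protein, had a peak of 6 blocks over 1164 nt in replicate 1 (1.86) and of 7 blocks over 1284 nt in replicate 2 (2.54), which ended 174 and 144 bp before the gene's end. A second ATXN2L peak near the gene's start had folds of 2.71 and 2.52. BCAM, a laminin receptor, had a peak at the gene's end with folds of 2.54 and 4, and DAZAP1, an RNA-binding protein, had 5 blocks with folds of 2.03 and 2.26. Replicate 2 was the higher list for each of these peaks except the ATXN2L peak near the start.

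Multi-block peaks were seldom centred on the 5′ end. Their midpoint lay within 200 nt of the gene's 5′ end for 11 peaks of replicate 1 (6.96%, 95% Wilson interval 3.93 to 12.04%), beside 27.4% of all peaks, and for 12 of replicate 2 (5.26%, 3.04 to 8.97%), beside 21.6%. The distance is genomic and includes introns, so a peak that begins at the start and runs over several exons has its midpoint far inside. The first base of the peak lay within 250 bp of the gene's start for 50 peaks (31.6%, 24.9 to 39.3%), beside 37.5% of all peaks, and for 48 (21.1%, 16.3 to 26.8%), beside 32.1%. By this measure the gap to all peaks was smaller. A midpoint within 200 nt of the 3′ end was found for 1 peak in each list. The peaks covered a median of 15.9% and 10.7% of the gene's span with their introns, against 0.958% and 1.01% for all peaks. They lay in shorter genes, with a median span of 12079 and 14744 bp against 23623 and 25173 bp over all peaks. For 2-block peaks across a short gap it was 12650.5 and 17318 bp. With a gap of 5000 bp or more it was 40960 and 48916 bp. The gap limit favours short introns, and the short span is not particular to multi-block peaks. Chromosome 19, which is gene-dense, held 27.8% and 26.3% of them, against 13.4% and 13.8% of all peaks.

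The gene lists were read next by the number of genes with a multi-block peak among those with any peak, against the 5.85% and 6.46% of all genes. Cytosolic ribosomal protein genes had 9 of 17 in replicate 1 and 2 of 13 in replicate 2, with median folds of 1.48 and 1.33. RPL13 (1.5 and 1.42) and RPL18 (1.24 and 1.25) were the genes in both. Hepatocyte secreted proteins had 4 of 19 and 5 of 18, with median folds of 1.25 and 1.35. In both lists these were APOA1, the main protein of HDL (1.16 and 1.15), C3, a complement component (1.23 and 1.35 at the shared peak), and F2, prothrombin (1.33 and 1.43). Folds of these shared peaks were near 1 and differed little between the lists. Expression was not measured here.

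Translation factors had 4 of 17 and 3 of 18. EEF2, the elongation factor of ribosome translocation, had 3 multi-block peaks in each list, with folds from 1.16 to 1.77. EIF4G1, a scaffold of the cap-binding complex, had 1.66 in both lists, and EIF3G, a subunit of initiation factor 3, had 1.68 and 1.59. Splicing factors had 5 of 23 and 5 of 24. They included HNRNPL, described above, and SF1, which binds the branch point (2.13 and 2.44). ER chaperones had 3 of 27 and 3 of 25, among them PRKCSH, the beta subunit of glucosidase II (2.48 and 3.12), and HYOU1, a chaperone (1.5 and 1.71 at the shared peak).

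Glycolysis and carbon metabolism genes had 3 of 9 and 1 of 6, with PCK2 in both lists. Cytoskeleton genes had 2 of 18 and 2 of 21, with beta-actin ACTB in both (1.67 and 1.64). Signalling kinases and phosphatases had 1 of 28 and 5 of 33. The gene in both lists was PRKCSH, which is the glucosidase subunit already counted among the ER chaperones. The others, all in replicate 2, included PPP4C, a phosphatase subunit (5.71), and DVL2 of the Wnt pathway (5.48 near the gene's start). These PPP4C and DVL2 peaks each overlapped a replicate 1 peak that was not multi-block. Chromatin regulators had 0 of 22 and 1 of 34, KMT2B, a histone methyltransferase (4.22). Vesicle coat genes had 0 of 10 and 1 of 15 (AP3D1), mitochondrial respiration 0 of 9 and 1 of 8 (NDUFV1), and aminoacyl-tRNA synthetases 0 of 4 and 1 of 7 (FARSA). Proteasome and ubiquitin genes (0 of 11 and 0 of 9) and sterol synthesis genes (0 of 7 and 0 of 9) had none in either list. With so few genes per list these counts are descriptions, and a gene without a peak can also be one without mRNA.

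Several multi-block peaks in 1 gene were found for 8 of the 147 genes in replicate 1 (5.44%) and 18 of the 207 in replicate 2 (8.70%), with up to 3 and 4 per gene. COL18A1 had 4 in replicate 2 and 2 in replicate 1. C3 had 3 in replicate 1 (folds 1.19, 1.28 and 1.23) and 1 in replicate 2. NOTUM, a secreted Wnt deacylase, had 3 in replicate 1 (1.38, 1.52 and 1.29) and 2 in replicate 2 (1.34 and 2.60). ATP2A2 had 2 in replicate 2, with fold 16.6 near the gene's start and 1.91 near its end. Within 1 gene, then, folds could be alike, as in C3, or far apart, as in ATP2A2. Genes with a multi-block peak held a mean of 1.91 and 2.24 peaks of any kind, against 1.34 and 1.48 for all genes with a peak. A gene with more peaks has more chances to hold a multi-block one, so the choice of genes itself favours a higher mean.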

How the data were processed

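Stranded libraries were made from the poly(A) RNA of 2 input and 2 m7G IP samples of HepG2, per the labels' protocols. STAR and GRCh38 are named, with no version or role, per the submitters' processing notes. The program that called the peaks is not given in the sources used here, nor is the sequencing depth. Each deposited list holds, per the file headers, the p-value of a peak, its log10 p and log10 FDR (used as scores of the authors' caller), its fold enrichment (a ratio whose libraries and scaling are not named) and its number of blocks. The weakest -log10 FDR in either deposited list is 1.32. The deposited p-value is 0 for 1 multi-block peak of replicate 1, so the log10 p was used.

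Gaps were computed from block starts and sizes, and positions were made 1-based. Gene names were matched to a RefSeq table (GRCh38.p14) by symbol (153 and 220 multi-block peaks) or older symbol (5 and 8), and every multi-block peak overlapped its gene's span. Overlap was counted along blocks, within gene and strand. No exon models and no genome sequence were used. Wilson intervals (95%) cover counting error only, and 2 lists allow no test over samples. The peaks, gene lists and bins were chosen with earlier results of these data known. Genes named are, among pairs present in both lists, the 12 best by the lower fold rank, the 8 longest, the 6 with the most blocks and the 5 best by log10 p; up to 3 per gene list; up to 6 with several peaks; and those next to the gap limit. Others named were chosen after their values were seen, and some genes that the rule names are left out of the text. Alternatives were stricter p, other gap and block limits, other overlaps and windows, and each list alone. The scripts were tested on simulated lists. The work used matplotlib 3.10.9, scipy 1.17.1, pandas 2.3.3 and numpy 2.4.6 under Python 3.11.15.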

Additional observations from a re-analysis of the deposited data

How the results depend on the processing

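Values here are means over both lists. The share of peaks with 3 or more blocks was 4.76%, and 7.91% in the 50% of peaks that had the smallest p, 3.62% with every gap below 2000 bp and 5.95% with no gap limit; the gap settings change the count by construction. Overlap with the other list was 74.1%, and 88.2% with 4 or more blocks and 31.4% when 80% of both peaks was required. An intron listed in the other list was found for 71.1%, and every intron for 38.7%. The share at the 5′ end was 6.11%, and 7.36% with gaps below 2000 bp, 0.98% with 4 or more blocks, 16.3% within 500 nt and 25.3% by the nearest base. The median length was 273.5 nt, and 298.8 nt for the smallest p and 403 nt with 4 or more blocks. The rho of paired folds was 0.87, and 0.95 with 4 or more blocks (n = 24) and 0.93 with 80% of both peaks (n = 50). Where the setting does not fix the change, the cause was not tested.

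With each list alone, the share of peaks ranged from 4.709 to 4.803%, the difference in median fold from single-block peaks from -1.36 to -0.46 and from 2-block peaks from -0.81 to -0.005, the 5′ share from 5.26 to 6.96% and the length from 269 to 278 nt; one list gives no overlap, intron share or rho. The mean fold differences, -0.91 and -0.41, kept their sign under every alternative run. In replicate 2 by itself the difference from 2-block peaks was 0.07 for the smallest p and 0.19 with no gap limit. No paired analysis was possible because the input samples carry no list. The depth of sequencing is unknown, so peaks missing from a list may be uncalled.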
